A study of Homo sapiens with 10 samples.

Results

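Class 3 semaphorins are secreted proteins first known for steering growing axons and later for acting on blood vessels, immune cells and tumor cells. Most of them bind a neuropilin, NRP1 or NRP2, which holds the ligand, while a class A plexin passes the signal into the cell, where it loosens actin filaments and integrin contacts. In carcinomas, several of these ligands are known to act on the tumor cells themselves and on the endothelial cells and macrophages around them. Of the 58050 genes in the table, 10 are described here: the ligands SEMA3A, SEMA3B, SEMA3C, SEMA3D and SEMA3F, the neuropilins NRP1 and NRP2, and the plexins PLXNA1, PLXNA2 and PLXNA3. They were chosen by name as one ligand and receptor family, after the differences between the groups in these same libraries were known, so their values in that contrast are given as a description, with no p-value printed for any of them. Counts of members past the test threshold stand beside the share of all genes and support nothing.

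The libraries were made from poly(A) RNA of HCT116, a human colon carcinoma cell line grown in McCoy's 5A medium with fetal calf serum. The 5 HCT116-WT libraries carry the genotype label WT, and whether those cultures had received the scrambled guide used as a control is not given in the sources used here. The 5 HCT116-CD276KO libraries came from cells electroporated with Cas9 and a guide against CD276, which encodes the immune checkpoint protein B7-H3, and sorted into a single cell clone. Loss of CD276 and other features of that clone cannot be told apart. The 5 libraries of each group were biological replicates of the same cells, and whether each had its own flask is not clear from the sources used here. The p-values therefore measure the spread between these replicates and not between clones. CD276 was listed at 49.3, 42.0, 53.6, 38.1 and 43.3 TPM (transcript level scaled to length and library total) in HCT116-WT replicates 1 to 5 and at 4.4, 7.42, 5.79, 4.79 and 4.89 TPM in the HCT116-CD276KO replicates 1 to 5, so every library matched its label. TPM gives no read count per gene and therefore no counting interval. The epithelial genes KRT8, KRT18, KRT19, EPCAM and CDH1 were present in all libraries and passed the test as lower in HCT116-CD276KO (CDH1 42.7 against 20.4 TPM on average), whereas VIL1 stayed at or near 0. Of the markers of other cell types, PTPRC, PECAM1, COL1A2 and DCN were near 0, and CD68 (13.2 and 9.58 TPM) and COL1A1 (7.31 and 5.57 TPM) were not. Their part in the results below was not tested. Over the 13581 genes that averaged 1 TPM or more, the median log2 fold change was -0.09. Libraries also differed in how levels ran with transcript length, with Spearman's rho between 0.43 and -0.52 across genes, and HCT116-CD276KO replicates 2 (-0.52) and 3 (-0.49) stood lowest. They differed in the trend with GC content as well. There rho ran from -0.34 in HCT116-WT replicates 1 and 2 to 0.61 in HCT116-WT replicate 3, and was 0.48 in HCT116-CD276KO replicate 2. Several results below are also given without HCT116-CD276KO replicates 2 and 3 or after the trends in length and GC content were removed.

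The ligands ranged from much lower in HCT116-CD276KO to nearly level, with SEMA3B in between. SEMA3A, SEMA3C and SEMA3D were at 33.9%, 39.6% and 33.8% of their HCT116-WT level, SEMA3B at 55.1%, and SEMA3F at 96.6%. SEMA3A, SEMA3C and SEMA3D lie on chromosome 7, as does SEMA3E (below), and SEMA3B and SEMA3F on chromosome 3. In bulk RNA, fewer cells that express a gene and less RNA per cell cannot be told apart.

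**Figure D1:**
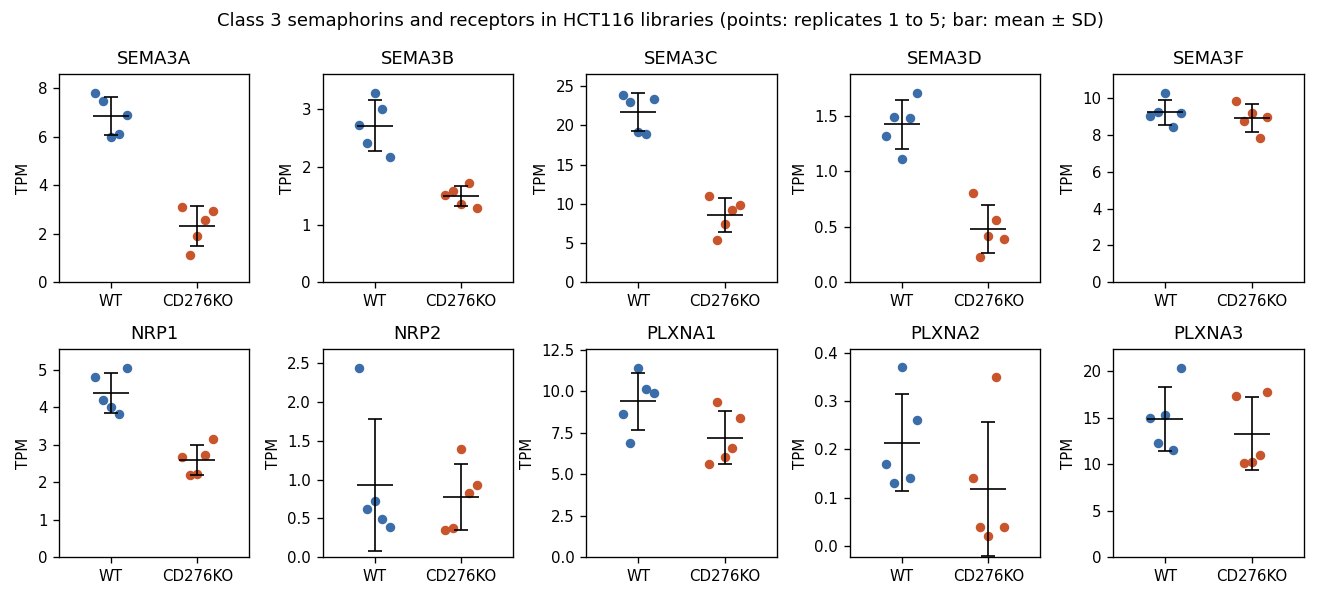
TPM of the 10 genes (y axis, one panel per gene, linear scale) in each HCT116-WT and HCT116-CD276KO library, with replicates 1 to 5 drawn from left to right and bars for the mean ± SD (n = 5 per group). The groups do not overlap for SEMA3A, SEMA3B, SEMA3C, SEMA3D and NRP1, and they overlap for the other 5 genes. Of all genes tested, 6.19% were lower in HCT116-CD276KO without overlap, and SEMA3D was not among the genes tested.

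SEMA3C, a ligand known for acting through both neuropilins and for promoting growth and migration in several carcinomas, had the highest level of the 10 genes in HCT116-WT (ENSG00000075223, chr7:80742538-80922359, minus strand, GRCh38). It was at 23.9, 23.0, 19.1, 18.95 and 23.3 TPM in HCT116-WT replicates 1 to 5 and at 10.98, 5.38, 7.40, 9.25 and 9.81 TPM in the HCT116-CD276KO replicates 1 to 5. The lowest HCT116-WT library was well above the highest HCT116-CD276KO library, and replicate 2 was the lowest of its group. The means were 21.7 ± 2.42 and 8.56 ± 2.20 TPM (SD, n = 5 each), and the log2 fold change, here and below on log2(TPM + 1), was -1.27 (SE 0.16).

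SEMA3A, the prototype of the family and the ligand that collapses axonal growth cones through NRP1, showed the same picture at a lower level (ENSG00000075213, chr7:83955777-84492724, minus strand). HCT116-WT replicates 1 to 5 were at 7.79, 7.47, 6.0, 6.12 and 6.88 TPM, and HCT116-CD276KO replicates 1 to 5 at 3.12, 1.11, 1.89, 2.56 and 2.94 TPM. No library of either group reached into the range of the other. The means were 6.85 ± 0.794 and 2.32 ± 0.826 TPM (SD, n = 5 each), with a log2 fold change of -1.27 (SE 0.17). The log2 ratio of the means was -1.56, against -1.34 for SEMA3C.

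SEMA3D, a ligand known from the patterning of vessels and neural crest, was the least abundant of these 3 (ENSG00000153993, chr7:84995553-85187056, minus strand). It was at 1.32, 1.49, 1.11, 1.48 and 1.70 TPM in HCT116-WT replicates 1 to 5 and at 0.80, 0.23, 0.42, 0.56 and 0.39 TPM in the HCT116-CD276KO replicates 1 to 5. Again the groups did not overlap, and replicate 2 of HCT116-CD276KO was the lowest. Its mean over all libraries was under 1 TPM, which left it out of the test. The log2 fold change from a fit over all genes above 0 TPM was -0.72 (SE 0.11), a figure that the added 1 TPM pulls toward 0 at such levels, while the log2 ratio of its means was -1.56. SEMA3D averaged 1.42 TPM in HCT116-WT and 0.48 TPM in HCT116-CD276KO, or 0.583 ± 0.206 TPM there without replicates 2 and 3 (SD, n = 3).

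SEMA3B, a ligand regarded as a tumor suppressor that acts through NRP1 and NRP2, was also lower (ENSG00000012171, chr3:50267558-50277546, plus strand). HCT116-WT replicates 1 to 5 were at 2.73, 2.41, 3.28, 3.00 and 2.18 TPM, and HCT116-CD276KO replicates 1 to 5 at 1.52, 1.59, 1.36, 1.73 and 1.29 TPM. The groups did not overlap, and the share that remained was larger than for SEMA3A, SEMA3C and SEMA3D. The log2 fold change was -0.57 (SE 0.11).

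SEMA3F, which signals mainly through NRP2 and is likewise described as a suppressor of tumor growth and vessels, was nearly level (ENSG00000001617, chr3:50155045-50189075, plus strand). HCT116-WT replicates 1 to 5 were at 9.01, 9.25, 10.3, 8.42 and 9.21 TPM, and HCT116-CD276KO replicates 1 to 5 at 9.85, 8.77, 9.20, 7.81 and 8.95 TPM. The groups overlapped over most of their range. The log2 fold change was -0.05 (SE 0.079, 95% confidence interval -0.22 to 0.13), and it changed sign between the other ways of processing the values, from -0.08 to 0.09.

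The remaining ligands of the class, SEMA3E and SEMA3G, were near 1 to 2 TPM in both groups. SEMA3E, which unlike the others can bind PLXND1 without a neuropilin, was at 1.34 ± 0.440 and 1.34 ± 0.317 TPM (SD, n = 5 each; log2 fold change 0.01, 95% confidence interval -0.33 to 0.34, limma adjusted p = 0.983). SEMA3G, an endothelial ligand of NRP2, was at 1.88 ± 0.160 and 1.78 ± 0.252 TPM (log2 fold change -0.05, 95% confidence interval -0.27 to 0.17, limma adjusted p = 0.776). Neither passed the test.

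The make-up of the ligand RNA differed between the groups accordingly. Summed over SEMA3A, SEMA3B, SEMA3C, SEMA3D and SEMA3F, it was 44.8, 43.6, 39.8, 38.0 and 43.3 TPM in HCT116-WT replicates 1 to 5 and 26.3, 17.1, 20.3, 21.9 and 23.4 TPM in the HCT116-CD276KO replicates 1 to 5, or 52.0% of the HCT116-WT mean. SEMA3A, SEMA3C and SEMA3D together went from 29.9 ± 3.27 to 11.4 ± 3.20 TPM, and SEMA3B and SEMA3F from 11.9 ± 0.901 to 10.4 ± 0.658 TPM (SD, n = 5 each). Most of the latter sum was SEMA3F, and SEMA3B within it went from 2.72 to 1.5 TPM on average. SEMA3C made up 51.6 ± 2.5% of the sum in HCT116-WT and 38.8 ± 4.72% in HCT116-CD276KO, and SEMA3F 22.1 ± 2.19% and 41.6 ± 6.57%. SEMA3C exceeded SEMA3F in all HCT116-WT libraries, by 1.86 to 2.65 times, whereas in HCT116-CD276KO the ratio lay between 0.613 and 1.18. Within HCT116-CD276KO, SEMA3F was the higher only in replicates 2 (ratio 0.613) and 3 (0.804), where its share was also the largest (51.3% and 45.4%). In replicates 1, 4 and 5 the ratio was 1.11, 1.18 and 1.1, and the SEMA3F share 37.5%, 35.6% and 38.3%. All of these sums follow from the genes above and are no separate result.

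**Figure D2:**
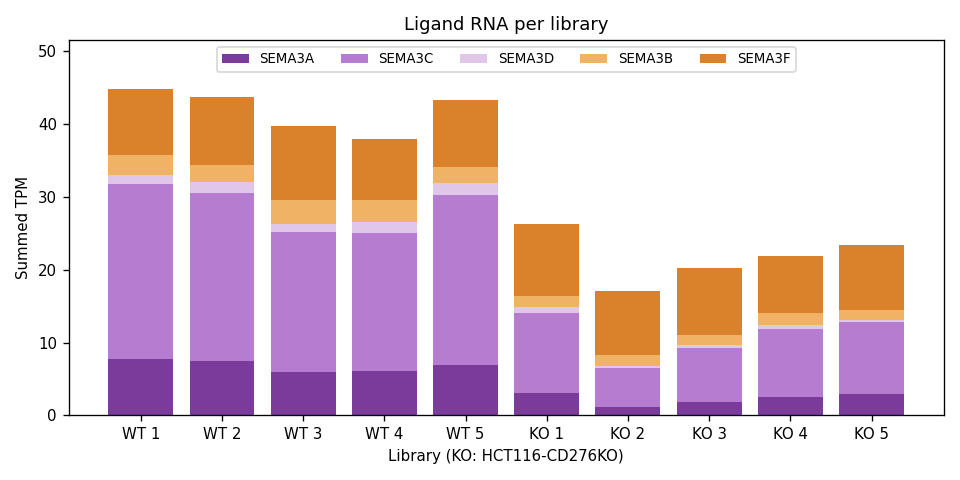
Stacked TPM (y axis, linear from 0) of SEMA3A, SEMA3C, SEMA3D, SEMA3B and SEMA3F in each library (x axis). The sums lie between 38.0 and 44.8 TPM in HCT116-WT and between 17.1 and 26.3 TPM in HCT116-CD276KO, where the purple part (SEMA3A, SEMA3C and SEMA3D) is smaller and the orange part (SEMA3B and SEMA3F) is of similar height. The orange part is mostly SEMA3F, and SEMA3B within it is lower in HCT116-CD276KO.

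Among the co-receptors, NRP1 was lower and NRP2 was too low and too variable to compare. NRP1, the main binding partner of SEMA3A and also a co-receptor for VEGF-A (ENSG00000099250, chr10:33177492-33336262, minus strand), was at 4.81, 4.2, 4.01, 3.82 and 5.04 TPM in HCT116-WT replicates 1 to 5 and at 2.67, 2.18, 2.22, 2.72 and 3.15 TPM in the HCT116-CD276KO replicates 1 to 5. The groups did not overlap, and the HCT116-CD276KO mean was 59.1% of that in HCT116-WT. The log2 fold change was -0.59 (SE 0.11). NRP2, the co-receptor preferred by SEMA3F (ENSG00000118257, chr2:205681990-205798133, plus strand), was at 2.44, 0.62, 0.72, 0.49 and 0.39 TPM in HCT116-WT replicates 1 to 5 and at 0.35, 0.38, 1.39, 0.83 and 0.93 TPM in the HCT116-CD276KO replicates 1 to 5. HCT116-WT replicate 1 was far above the other 4 of its group, and the ranges overlapped. With that library the log2 fold change was -0.07 (SE 0.26), and without it 0.16. NRP2 averaged under 1 TPM and was not tested.

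The plexins overlapped between the groups. PLXNA3, a receptor for SEMA3F in neurons (ENSG00000130827, chrX:154458281-154477779, plus strand), was at 14.99, 12.3, 15.3, 11.5 and 20.3 TPM in HCT116-WT replicates 1 to 5 and at 17.3, 10.1, 10.2, 11 and 17.8 TPM in the HCT116-CD276KO replicates 1 to 5. Both groups spread widely, and the log2 fold change was -0.17 (SE 0.19, 95% confidence interval -0.58 to 0.25). PLXNA1, a signalling partner of NRP1 for SEMA3A (ENSG00000114554, chr3:126982693-127037389, plus strand), was at 8.62, 6.86, 11.4, 10.1 and 9.91 TPM in HCT116-WT replicates 1 to 5 and at 5.63, 9.37, 6.05, 6.56 and 8.36 TPM in the HCT116-CD276KO replicates 1 to 5. HCT116-CD276KO replicates 2 and 5 lay within the HCT116-WT range, and the log2 fold change was -0.35 (SE 0.15, 95% confidence interval -0.68 to -0.01). That interval is not adjusted for the number of genes tested, and neither PLXNA1 nor PLXNA3 passed the test. PLXNA2, a further class A plexin (ENSG00000076356, chr1:208022242-208244384, minus strand), was low throughout, at 0.13 to 0.37 TPM in HCT116-WT and 0.02 to 0.35 TPM in HCT116-CD276KO, and was not tested. PLXNA4, the last plexin of the class, was listed at 0 in all libraries but HCT116-CD276KO replicate 4 (0.01 TPM).

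Of the 10 genes, 7 averaged 1 TPM or more and were tested, and 3 (SEMA3D, NRP2 and PLXNA2) were not. SEMA3A, SEMA3B, SEMA3C and NRP1, 4 of the 7, had a limma adjusted p under 0.05 and were lower in HCT116-CD276KO, beside 4.09% of all genes tested that passed as lower and 4.87% that passed in either direction. For the same 4, the groups did not overlap, beside 6.19% of all genes tested that were lower without overlap. Since the 10 genes were chosen with this contrast known, nothing is read from these counts. Without HCT116-CD276KO replicates 2 and 3, SEMA3A and SEMA3C passed and SEMA3B and NRP1 no longer did, with log2 fold changes of -1.02, -1.04, -0.56 and -0.48 in that order. Leaving out any one library at a time left the count at 4.

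**Figure D3:**
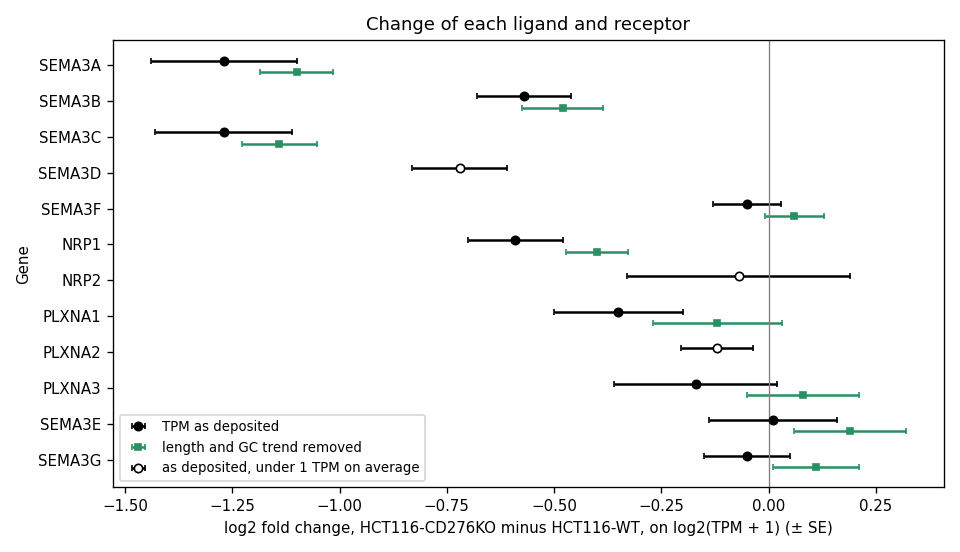
log2 fold change (x axis, HCT116-CD276KO minus HCT116-WT on log2(TPM + 1), bars ± SE) of the 10 genes and of SEMA3E and SEMA3G (y axis). Black circles use the deposited TPM (open where the mean is under 1 TPM) and green squares the values after removal of the trends in length and GC content, where SEMA3A is at -1.10, SEMA3C at -1.14, SEMA3B at -0.48 and NRP1 at -0.40.

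SEMA3A, SEMA3C and SEMA3D have long transcripts of low GC content (8113, 4874 and 6772 bases at 36.7%, 37.1% and 36.9% GC), whereas SEMA3B and SEMA3F are shorter and richer in GC (3184 and 3607 bases at 63.9% and 61.7%). After removal of the length and GC trends of each library, the log2 fold changes were -1.10 for SEMA3A (SE 0.085) and -1.14 for SEMA3C (SE 0.087), and their groups still did not overlap. NRP1 was at -0.40 (SE 0.072) and SEMA3B at -0.48. The plexin differences shrank, to -0.12 for PLXNA1 and 0.08 for PLXNA3. The library kit was a directional one, but whether the counting used strand is not given in the sources used here. If it did not, genes on the opposite strand could share reads with a member. LAGE3, which overlaps exons of PLXNA3, was at 36.4 and 37.0 TPM on average, and PLXNA3 levels are uncertain to that extent. The antisense genes at SEMA3B, SEMA3F, NRP1 and NRP2 were each under 0.5 TPM on average.

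The order of the levels also differed between the groups. In HCT116-WT, SEMA3C was followed by PLXNA3, PLXNA1, SEMA3F, SEMA3A, NRP1, SEMA3B, SEMA3D, NRP2 and PLXNA2. PLXNA1 and SEMA3F overlapped there, as did SEMA3D and NRP2, and although the ranges of SEMA3C and PLXNA3 overlapped, SEMA3C was the higher in 5 of 5 libraries. In HCT116-CD276KO, PLXNA3 came first, followed by SEMA3F, SEMA3C, PLXNA1, NRP1, SEMA3A, SEMA3B, NRP2, SEMA3D and PLXNA2. SEMA3F exceeded SEMA3C in 2 of 5 of these libraries, replicates 2 and 3, and without them SEMA3C averaged 10.0 ± 0.883 and SEMA3F 8.87 ± 1.02 TPM (SD, n = 3), the reverse order. With all 5, from NRP1 down each gene overlapped the next.

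SEMA3A and SEMA3C also varied alike among the HCT116-CD276KO libraries. In HCT116-CD276KO, both ran from replicate 1 as the highest through 5, 4 and 3 to replicate 2 as the lowest. Other genes shared that order, among them MET and CDH1. In HCT116-WT their orders differed, with replicates 1, 2, 5, 4 and 3 from high to low for SEMA3A and 1, 5, 2, 3 and 4 for SEMA3C. After removal of the length and GC trends, the HCT116-CD276KO orders differed in replicates 4 and 5. The ratio of SEMA3C to SEMA3A stayed between 3.07 and 3.39 in HCT116-WT and between 3.34 and 4.85 in HCT116-CD276KO. Over the 10 libraries, Pearson's r of their log2(TPM + 1) values was 0.998, and SEMA3C ranked first among 13580 genes for likeness to SEMA3A. For the deviations from the group means r was 0.986, which ranked SEMA3C 3 for SEMA3A and SEMA3A 4 for SEMA3C. The 10 libraries form 2 separate groups of 5, share these length trends, and allow no test of the relation. With the trends in length and GC content removed, r was 0.996 and that of the deviations 0.921, and by the deviations SEMA3C then ranked 8 of 13471 genes for SEMA3A and SEMA3A 29 for SEMA3C. The genes next most like SEMA3A were EHF (r = 0.993, deviations 0.979), GREB1L (0.991, 0.937), CAMK2D (0.991, 0.939) and WWC2 (0.988, 0.921). For SEMA3C, EHF (0.996, 0.987), GREB1L (0.995, 0.969) and CAMK2D (0.995, 0.970) came next after SEMA3A.

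**Figure D4:**
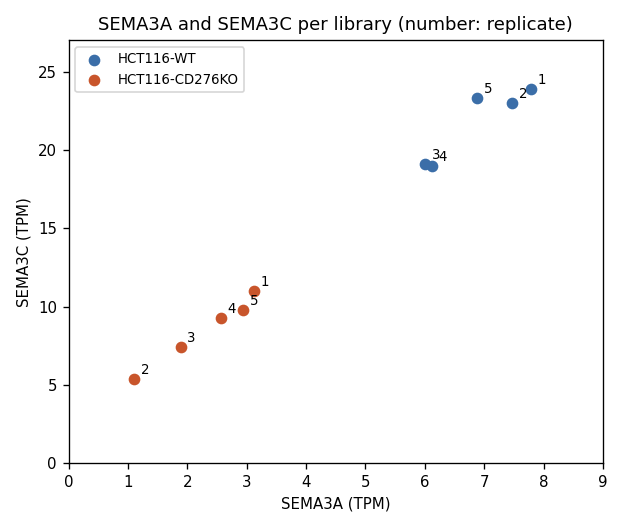
SEMA3A (x axis, TPM) against SEMA3C (y axis, TPM) in the 10 libraries, numbered by replicate, both axes linear from 0. HCT116-WT libraries lie at 6.0 to 7.79 TPM of SEMA3A and HCT116-CD276KO libraries at 1.11 to 3.12 TPM, with no overlap on either axis.

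SEMA3C, SEMA3E, SEMA3A and SEMA3D lie in this order on the minus strand within 4.44 Mb of chromosome 7 (chr7:80742538-85187056), together with HGF, CACNA2D1 and PCLO. Of the 30 genes of the table in this stretch, 4 were tested. The 2 that are not members, SEMA3E (above) and the unnamed transcript ENSG00000280325 (5.71 and 7.61 TPM, log2 fold change 0.36, limma adjusted p = 0.0760), did not pass. HGF, the ligand of MET, was at 0.002 TPM in HCT116-WT and listed at 0 in HCT116-CD276KO on average. CACNA2D1 (0.128 and 0.106 TPM) and PCLO (0.448 and 0.266 TPM) were also low. Between SEMA3F and SEMA3B on chromosome 3, a stretch of 122.5 kb with 10 genes of the table, the 2 tested genes that are not members did not pass either. They were SLC38A3 (2.04 and 1.44 TPM, log2 fold change -0.31, limma adjusted p = 0.299) and GNAI2 (117 and 120 TPM, 0.03, limma adjusted p = 0.820).

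The bases before the annotated starts of SEMA3C and SEMA3D are shown to let their upstream sequence be compared. Both were lower in HCT116-CD276KO, as was SEMA3A on the same chromosome, whereas SEMA3E there was level. A shared control of these genes was not tested. RefSeq promoter windows of GRCh38.p14 matched 8 of the 10 members by symbol, all but SEMA3A and NRP1. The 250 bases before each start are printed 5′ to 3′ on the gene's strand, SEMA3C at chr7:80922390-80922639 and SEMA3D at chr7:85187057-85187306, both minus strand. Capitals would mark a match to the AP-1 motif TGANTCA, the GC box GGGCGG, the TATA box TATAAA, the TEAD motif GGAATG, the E-box CACGTG or the TCF/LEF motif CTTTGA on either strand, and there was none in either window.
SEMA3C: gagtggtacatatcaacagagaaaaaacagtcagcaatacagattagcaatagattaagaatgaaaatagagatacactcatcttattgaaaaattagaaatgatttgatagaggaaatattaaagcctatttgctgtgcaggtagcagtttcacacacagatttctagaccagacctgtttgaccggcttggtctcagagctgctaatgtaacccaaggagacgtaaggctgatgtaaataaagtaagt
SEMA3D: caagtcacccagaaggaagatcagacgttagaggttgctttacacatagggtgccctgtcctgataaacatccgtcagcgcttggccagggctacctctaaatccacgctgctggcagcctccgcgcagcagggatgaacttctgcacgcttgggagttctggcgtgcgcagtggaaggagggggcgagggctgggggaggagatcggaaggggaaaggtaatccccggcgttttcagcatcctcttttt
The SEMA3C window holds 2 CG dinucleotides at 36.4% GC and the SEMA3D window 13 at 57.6% GC, against medians of 11 and 58.0% over 35116 windows of the same length. A further SEMA3C start inside the gene has a window with 39 CG dinucleotides, 77.6% GC and 3 GC boxes, a motif found in 42.6% of all windows. Windows of SEMA3F, PLXNA1 and PLXNA3 were at up to 82.0%, 84.4% and 82.8% GC. The AP-1 motif (6.57% of all windows), the TATA box (10.7%) and the E-box (6.34%) were in none of the 15 windows of the members. Some windows of a gene overlap, as 2 of SEMA3B do, so the 15 are not all separate stretches. The TEAD motif (11.9%) was in 2 windows of SEMA3B and 1 of SEMA3F, and the TCF/LEF motif (11.2%) in 1 window each of SEMA3F and PLXNA1. Of the windows with the TEAD motif, 1 of SEMA3B and that of SEMA3F lay wholly in annotated exons. Gene-level TPM does not show which start was used.

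The other genes of the pathway, a list of 65 ligands, receptors, proteases and signalling genes, mostly did not pass the test. Of the 50 tested, 1 passed, MICAL2 (2.0%, beside 4.87% of all genes tested), and 36 were lower in sign (72.0%, beside 68.1% of all genes tested). Their median log2 fold change was -0.10, beside -0.09 over all genes tested. MICAL2, an enzyme of a family that acts below plexins and takes actin filaments apart by oxidation, was at 21.3, 19.2, 17.1, 17.8 and 18.6 TPM in HCT116-WT replicates 1 to 5 and at 15.1, 9.84, 9.65, 13.6 and 15.1 TPM in the HCT116-CD276KO replicates 1 to 5. The groups did not overlap, and the lowest values were those of HCT116-CD276KO replicates 2 and 3. The log2 fold change was -0.56 (SE 0.13, limma adjusted p = 0.0336). It no longer passed without both of those libraries (-0.34, limma adjusted p = 0.0722), nor when any one of HCT116-WT replicates 1, 2, 4 and 5 or HCT116-CD276KO replicates 2, 3 and 4 was left out, with a limma adjusted p between 0.0145 and 0.0961 over all the alternatives.

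**Figure D5:**
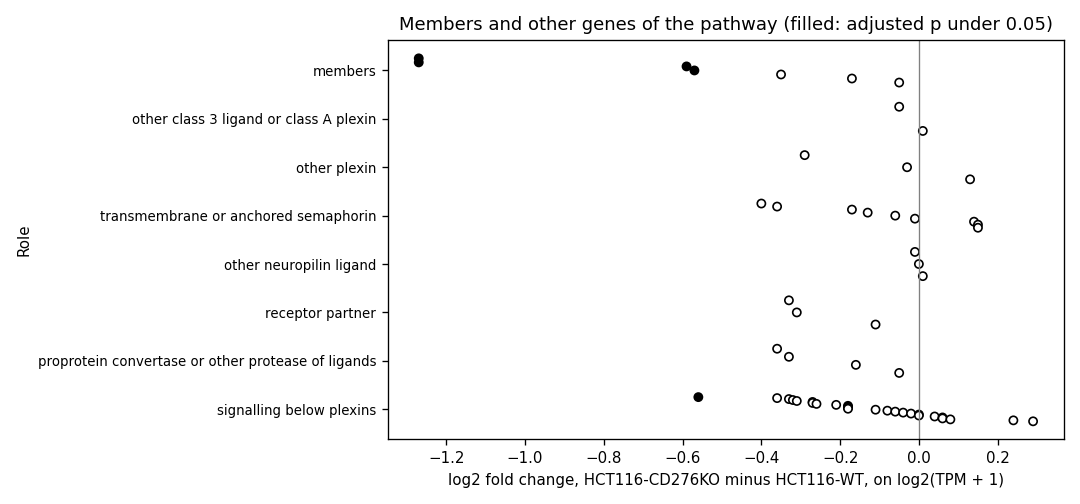
log2 fold change (x axis, HCT116-CD276KO minus HCT116-WT on log2(TPM + 1)) of the 7 tested members and the 50 tested pathway genes, by role (y axis; small vertical offsets only separate points). Filled points had an adjusted p under 0.05: SEMA3A, SEMA3C, SEMA3B and NRP1 among the members, and MICAL2 among the signalling genes.

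None of the 3 tested plexins of other classes passed, among them PLXNB2, the most abundant and a receptor of class 4 semaphorins (95.1 ± 9.97 and 77.6 ± 9.69 TPM, SD, log2 fold change -0.29, limma adjusted p = 0.111). None of the 9 tested transmembrane or anchored semaphorins passed, and SEMA6B, the most abundant, was at 41.1 ± 3.82 and 45.4 ± 4.17 TPM (0.14, limma adjusted p = 0.337). The competing neuropilin ligands were nearly level, with VEGFB at 23.2 ± 1.82 and 23.0 ± 1.69 TPM (-0.01, limma adjusted p = 0.951). MET, a receptor tyrosine kinase that pairs with plexins and neuropilins, was at 149 ± 21.4 and 124 ± 37.6 TPM (-0.31, limma adjusted p = 0.353). FURIN, a convertase that cuts class 3 semaphorins, was at 38.0 ± 4.69 and 30.4 ± 6.02 TPM (-0.33, limma adjusted p = 0.187). CFL1, the actin-severing protein cofilin, was at 1370 ± 72.9 and 1410 ± 129 TPM (0.04, limma adjusted p = 0.747). After the trends in length and GC content were removed, 4 of the 50 passed, MICAL2 as lower (-0.42) and SEMA6B (0.24), FES (0.31) and DPYSL4 (0.36) as higher. Under the same correction, 9.55% of all genes tested passed and 3.93% passed as higher, so the total is near the background. FES and DPYSL4 are a kinase and a collapsin response mediator that act below plexins.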

How the data were processed

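RNA of 10 HCT116 samples was sequenced. Per the labels, the authors' tools included STAR 2.5.2b, RSEM 1.3.0 and featureCounts 1.5.1 on GRCh38. The authors deposited TPM per gene, each library summing to about 1000000, and which program made the TPM values is not given in the sources used here. The paper states an average read depth per sample, but counts were not analysed here. The number of reads behind a given value is therefore unknown. Symbols, positions, transcript lengths and GC content came from GENCODE 44.

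Values were taken as log2(TPM + 1), the 13581 genes that averaged 1 TPM or more were kept, and groups were compared with limma 3.58.1 in R 4.3.3 (linear fit, empirical Bayes with an intensity trend, Benjamini-Hochberg over all genes tested, threshold 0.05). Values for members under 1 TPM came from a fit over all genes above 0 TPM. Length and GC trends were removed per library by loess (span 0.3) for 13472 genes. The test was checked on simulated data.

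The members, pathway list and chromosomal stretches were chosen with earlier results of these data known. The text names all members, pathway genes that passed, SEMA3E, SEMA3G, PLXNA4, the most abundant gene of each role, the 5 genes most like SEMA3A or SEMA3C (1 is not reported here), and tested genes of each stretch. The stretch on chromosome 7 runs to SEMA3D, the outermost member by annotation. FES, DPYSL4, LAGE3 and the low genes of the stretches were named after their values were seen. Alternatives changed the pseudocount (0.1), filter, scaling, length and GC trend, variance moderation, replicate block and libraries. Leaving out HCT116-CD276KO replicates 2 and 3 together was chosen after seeing the data.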

Additional observations from a re-analysis of the deposited data

Results flagged for a closer look

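NRP2 was at 2.44 TPM in HCT116-WT replicate 1 and at 0.39 to 0.72 TPM in the other 4 HCT116-WT libraries. The gap to the nearest library was 0.839 of the range of the group, which marks this library as far from the others. Without it, the HCT116-WT mean was 0.555 TPM, below the 0.776 TPM of HCT116-CD276KO, and the log2 fold change went from -0.07 to 0.16. The cause was not tested. Among the 26 groups of 5 libraries examined in this way, chance alone would mark about 1.3.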

How the results depend on the processing

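Over 10 leave-one-out fits, the count of members that passed stayed at 4. It was 1 with genes of at least 5 TPM, where only 4 members were tested, and 2 without HCT116-CD276KO replicates 2 and 3. With all genes above 0 TPM the count was 5, since all 10 members were then tested and SEMA3D passed too. With a pseudocount of 0.1, SEMA3A was at -1.6, SEMA3C at -1.36, SEMA3B at -0.81 and NRP1 at -0.74 in log2 fold change. SEMA3F stayed at -0.05. Pathway genes that passed numbered 1, but 0 with all genes above 0 TPM or without HCT116-CD276KO replicates 2 and 3, 2 with quantile normalization, 4 with length and GC trends removed, and 0 to 2 with one library left out. Over all genes, 662 passed (556 lower, 106 higher), against 1287 with length and GC trends removed (757 lower, 530 higher), 339 without HCT116-CD276KO replicates 2 and 3, and 343 to 857 with one library left out. The fewest came without HCT116-WT replicates 5 (343), 1 (345), 2 (376) or 4 (421) or HCT116-CD276KO replicates 4 (375) or 3 (407). The split was 389 lower and 191 higher with median-of-ratios scaling and 385 and 253 with quantile normalization, both of which move the median of all genes from -0.09 to 0 or 0.01. The cause was not tested. The summed ligand TPM, recomputed only with median-of-ratios scaling (-0.85), without HCT116-CD276KO replicates 2 and 3 (-0.81) and with one library left out (-1.02 to -0.87), kept its direction. With replicate number as a block, 378 genes passed, and the counts of members (4) and pathway genes (1) did not move. Deviations of same-numbered libraries correlated at -0.181 to 0.119, so no pairing by number was seen. These deviations still hold the length and GC trends of each library, so they cannot decide whether the numbers pair the libraries. TPM holds no read count per gene, and genes near 1 TPM such as SEMA3D, NRP2 and PLXNA2 carry an unknown counting error.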
